A study of Mus musculus with 6 samples.

Results

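A set of 10 genes of arginase and polyamine metabolism, chosen by name from the 25865 genes of the deposited table, was followed in cultured mouse group 2 innate lymphoid cells (ILC2s) after exposure to toyocamycin. The 10 genes are the arginase Arg1, the ornithine decarboxylase Odc1 with its inhibitors Oaz1 and Oaz2 and the antizyme inhibitor Azin1, the biosynthetic enzymes Amd1, Srm and Sms, and the catabolic enzymes Sat1 and Smox. All 10 had a row in the table, and all 10 passed the filter on low values.

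The study had 3 toyocamycin and 3 Control samples of ILC2s, tissue-resident lymphocytes that make type 2 cytokines. In both groups the ILC2s had been sorted out of C57BL/6 large intestine and expanded over 5 days in a cytokine mix of IL-33, IL-25, IL-7 and IL-2 (10 ng/mL of each). The toyocamycin samples then received the compound for 16 h, and the Control samples received vehicle, for which no time is recorded. Toyocamycin is an adenosine analogue that inhibits the RNase of IRE1, an endoplasmic reticulum stress sensor, and the processing of ribosomal RNA. Its dose is not stated in those labels. They also leave unsaid whether replicates were different animals or cultures, so p-values reflect sample-to-sample spread that may be technical.

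Arginase splits arginine into urea and ornithine, and ornithine decarboxylase turns ornithine into putrescine, the simplest polyamine. Spermidine synthase and spermine synthase then add aminopropyl groups, which S-adenosylmethionine decarboxylase supplies. Antizymes, which are made only when the ribosome shifts frame in response to polyamines, bind ornithine decarboxylase and send it to the proteasome, and antizyme inhibitor binds antizyme in its place. Acetylation and oxidation lead back from spermine and spermidine or out of the cell. In mice, Arg1 is a known metabolic marker of ILC2s and of alternatively activated macrophages.

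Libraries held 22.3 M to 36.7 M reads assigned to genes, and 3 reads, the smallest level treated as detectable, correspond to 2.54 to 3.96 normalised reads. Values are normalised read counts, in which the reads of a gene are divided by the size factor of the sample. They are given as mean ± SD (n = 3), and log2 changes, toyocamycin minus Control, come with their standard error (SE) and adjusted p from limma. Most of the transcriptome differed. Of 16223 genes tested, 65.9% were called at an adjusted p under 0.05, 32.8% higher and 33.1% lower with toyocamycin. The groups did not overlap in 69.1% of genes, with toyocamycin higher in 34.2% and lower in 34.9%. With all samples set to equal totals, 67.4% were called, 24.9% higher and 42.5% lower. The log2 change of the median gene was then −0.35, against −0.03 as deposited, so small changes are read relative to the scaling used.

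All 11 ILC2 markers were detected, with a summed level of 358023 to 388991 in toyocamycin samples and 425542 to 438138 in Control samples. The sum hides opposite changes of its members. Gata3, Rora, Il1rl1 and Ptprc were higher in every toyocamycin sample than in any Control sample, while Il17rb, Klrg1, Il7r, Il5, Il13, Areg and Id2 were lower. Rora was at 18008 to 19294 with toyocamycin and 1304 to 1538 in Control. Il13 was at 11473 to 13804 with toyocamycin and 86022 to 92377 in Control. The 12 markers of macrophages and dendritic cells summed to 1142 to 1629 with toyocamycin and 913 to 1347 in Control, mostly Cd68 and Lyz2, while Adgre1 and Fcgr1 were at or below the floor of 3 reads in every sample. With toyocamycin, the sums were 276 to 330 for T cells, 182 to 213 for B cells, 170.4 to 199.1 for ILC3s and 197 to 217 for epithelial cells. In Control, they were 226 to 275 for T cells, 362 to 464 for B cells, 189 to 209 for ILC3s and 190.4 to 248 for epithelial cells. Fibroblast and endothelial markers summed to 712 to 935 with toyocamycin and 1271 to 1468 in Control, most of it Pecam1. Mast cell and granulocyte markers summed to 10.6 to 14.6 with toyocamycin and 9.06 to 13.2 in Control, with Fcer1a and Elane at 0 in every sample. In bulk samples, fewer cells of a type and less RNA per cell cannot be told apart.

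Arg1 was lower with toyocamycin, while Odc1, Sat1 and above all Smox were higher, and these directions held in all 19 other ways of processing that were run. Of the 10 genes, 7 were called higher and 2 lower, and 1, Azin1, did not pass, with a median log2 change of 0.45, against 65.9% of all genes called. The groups did not overlap in 8 of the 10, all except Oaz2 and Azin1, against 69.1% of all genes. At equal totals, 4 were higher, 3 lower and 3 did not pass, with a median log2 change of 0.10. Of all genes, 24.9% were then higher and 42.5% lower. The smaller changes, those of Oaz2, Amd1, Srm and Sms, and the lack of a call for Azin1 each depended on the processing. With near-identical copies added to their parent genes, 6 were higher and 2 lower, and again 65.9% of all genes were called (32.8% higher, 33.1% lower).

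**Figure D1:**
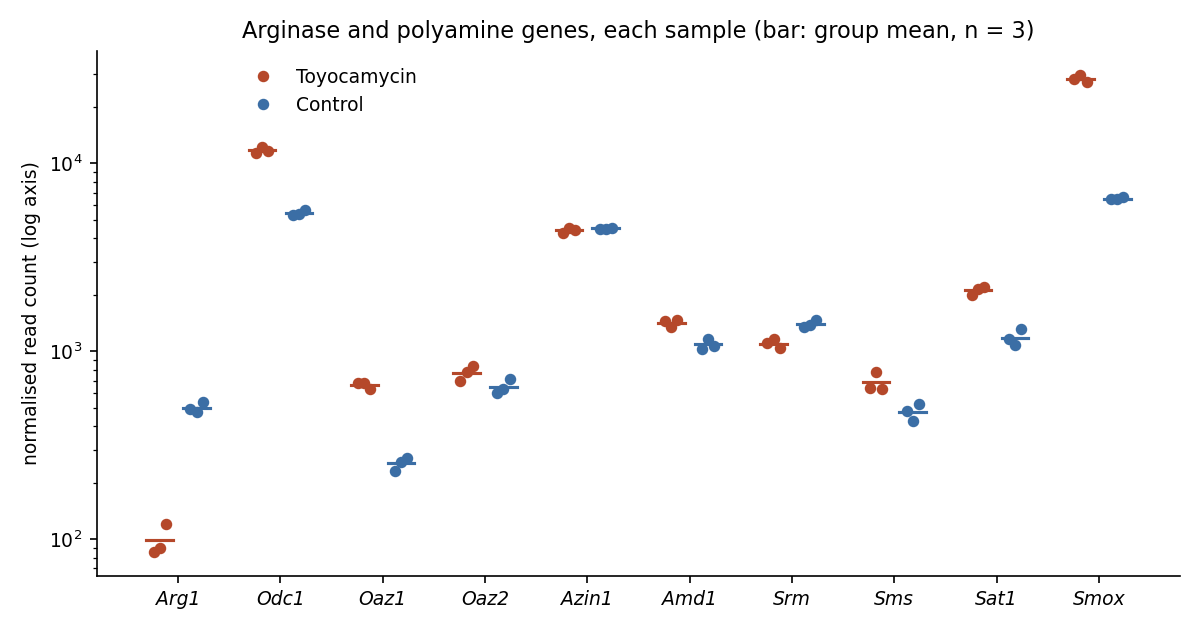
Normalised read count (log axis) of each of the 10 genes in every sample, with toyocamycin samples in red left of Control samples in blue and a bar at each group mean (n = 3). The Arg1 points lie between 85.8 and 120.2 with toyocamycin and between 474 and 539 in Control, whereas Smox lies between 27214 and 29699 with toyocamycin and between 6435 and 6636 in Control, and the groups touch only in Oaz2 and Azin1.

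Because the reading of the antizymes and of spermine synthase turns on near-identical sequences elsewhere in the genome, these stretches are shown first. Antizyme mRNA is read in 2 frames: the ribosome stops at a UGA codon in the starting frame unless it slips forward by 1 base there. The lines below give the same window around that site, from GENCODE M21 transcripts on GRCm38, all on the transcribed strand. Capitals mark the shift site as each transcript has it.
Oaz1: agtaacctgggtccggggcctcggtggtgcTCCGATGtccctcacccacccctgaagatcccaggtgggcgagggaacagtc
Oaz1-ps: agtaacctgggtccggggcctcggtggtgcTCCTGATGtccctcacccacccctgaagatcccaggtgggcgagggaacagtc
Oaz2: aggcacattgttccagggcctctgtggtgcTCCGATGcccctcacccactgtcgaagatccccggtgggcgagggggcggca

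The annotation writes the frameshift into the 2 antizyme genes by leaving out 1 genomic base, at position 80828295 of chromosome 10 in Oaz1 (transcript Oaz1-207) and at position 65686272 of chromosome 9 in Oaz2 (transcript Oaz2-206). Oaz1-ps, annotated as a transcribed pseudogene on chromosome 17, 17345242 to 17346204, keeps that base and is otherwise the same as Oaz1 in this window. Over its 685 bases it aligned to bases 75 to 758 of Oaz1-207 with that 1 gap base and 1 substitution, G199C, counted from the first base of Oaz1-207. Oaz2 differs from both at several bases of the window.

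The coding sequence of spermine synthase has an exact copy. The first 75 bases of that stretch are given here, with the start codon in capitals.
Sms: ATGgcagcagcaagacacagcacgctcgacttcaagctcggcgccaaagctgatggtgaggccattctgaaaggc
Sms-ps: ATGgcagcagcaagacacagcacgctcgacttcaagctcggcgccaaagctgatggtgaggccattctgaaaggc

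Sms-ps, a pseudogene on the X chromosome at 62775128 to 62776637, is identical to Sms over 1101 bases, from base 335 to base 1435 of the 3717 bases of Sms-201, the whole coding sequence with its stop codon. Reads inside such stretches cannot be assigned to 1 locus by sequence, and how the authors' counting treated them is not known here. Of the other genes, Amd1 has the protein-coding copy Amd2 (99.56% identical over 3202 bases), also with its own row, and the processed pseudogenes Amd-ps3 and Amd-ps4 (99.9% and 99.5%), for which no row was used here. Odc1 has 13 copies of at least 90% identity over 200 bases or more, the closest at 97.76%, Sat1 has 2 (up to 96.7%), Oaz2 has 2 (up to 98.73%) and Srm has 1 (91.24%). Arg1, Azin1 and Smox have none.

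Arg1, the cytosolic arginase (chromosome 10, 24915207 to 24927470, GRCm38), was at 85.8, 89.8 and 120.2 normalised reads in the toyocamycin samples and at 495, 474 and 539 in the Control samples. Every toyocamycin sample was below every Control sample. The means were 98.6 ± 18.8 with toyocamycin and 503 ± 33.2 in Control, 5.10-fold lower (log2 change −2.35, SE 0.15, adjusted p = 1.34e-11). Arg1 was lower in all of the other ways of processing, with log2 changes from −2.70 at equal totals to −1.92 with quantile normalization. Macrophages also express Arg1, and the range of their marker sum, mostly Cd68 and Lyz2, overlapped between the groups. Those 2 markers did not behave alike. Cd68 was at 670 to 687 with toyocamycin and 408 to 493 in Control. Lyz2 overlapped, at 360 to 781 with toyocamycin and 446 to 810 in Control. The part of the other cell types in the Arg1 difference was not tested.

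Odc1, which makes putrescine and is the main point of control of the pathway (chromosome 12, 17544808 to 17551502), was at 11434, 12245 and 11601 normalised reads with toyocamycin and at 5323, 5401 and 5660.1 in Control. The groups were far apart relative to their spread. The means of 11759.7 ± 428 with toyocamycin and 5461 ± 176 in Control differ 2.15-fold (log2 change 1.11, SE 0.05, adjusted p = 2.96e-14). The log2 change of Odc1 was 0.63 with quantile normalization, 0.76 at equal totals and 1.36 after correction for GC content and length. The Odc1 copy with a row, Gm15645, averaged 2.54 normalised reads with toyocamycin and 2.35 in Control, at or below the floor.

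Oaz1, the main antizyme (chromosome 10, 80826656 to 80829290), was at 677, 680.1 and 633 normalised reads with toyocamycin and at 230.1, 259 and 271 in Control. On its own row it was 2.62-fold higher, with means of 663 ± 26.7 with toyocamycin and 253 ± 21.1 in Control (log2 change 1.39, SE 0.11, adjusted p = 1.88e-10). Most of the reads of this sequence stood on the other row. Oaz1-ps was at 6252, 6282 and 6297 with toyocamycin and at 4286, 4250.4 and 4845 in Control, and held 90.4% of the summed level with toyocamycin and 94.6% in Control. Oaz1-ps itself was higher (log2 change 0.50, SE 0.06, adjusted p = 8e-08), except with quantile normalization, where its log2 change was −0.01. The sum of both rows was 6929, 6962 and 6929 with toyocamycin and 4516, 4509 and 5116 in Control, a 1.47-fold higher level without overlap. Fitted as 1 gene, Oaz1 with its copy gave 0.56 on the log2 scale (SE 0.06, adjusted p = 1.06e-08), and 0.21 when the samples were also set to equal totals.

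Oaz2, the second widely expressed antizyme (chromosome 9, 65676548 to 65690300), was at 695, 774 and 839 normalised reads with toyocamycin and at 604, 634 and 713 in Control. The lowest toyocamycin sample was below the highest Control sample, so the groups overlap. The means of 769 ± 72.3 with toyocamycin and 650.2 ± 56 in Control gave a log2 change of 0.24 (SE 0.09, adjusted p = 0.0273). This call was lost at equal totals (log2 change −0.11, adjusted p = 0.313), with TMM scaling (0.19, adjusted p = 0.0773) and in edgeR (0.19, adjusted p = 0.0745). It was also lost without toyocamycin replicate 2 (adjusted p = 0.0805) or 3 (adjusted p = 0.14), and without Control replicate 1 (adjusted p = 0.144) or 2 (adjusted p = 0.092). No direction of Oaz2 is therefore stated.

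Azin1, which resembles ornithine decarboxylase without its activity and takes antizyme away from it (chromosome 15, 38487430 to 38519294), was at 4288, 4524 and 4440.4 normalised reads with toyocamycin and at 4498, 4499.6 and 4562 in Control. The groups overlap. The means were 4418 ± 119.7 with toyocamycin and 4519.8 ± 36.6 in Control, with a log2 change of −0.03 (SE 0.05, 95% interval −0.14 to 0.07, adjusted p = 0.59). Azin1 was called lower at equal totals (−0.38, adjusted p = 2.65e-07), with quantile normalization (−0.52, adjusted p = 2.02e-08) and with the GC and length correction (−0.58, adjusted p = 4.7e-09).

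**Figure D2:**
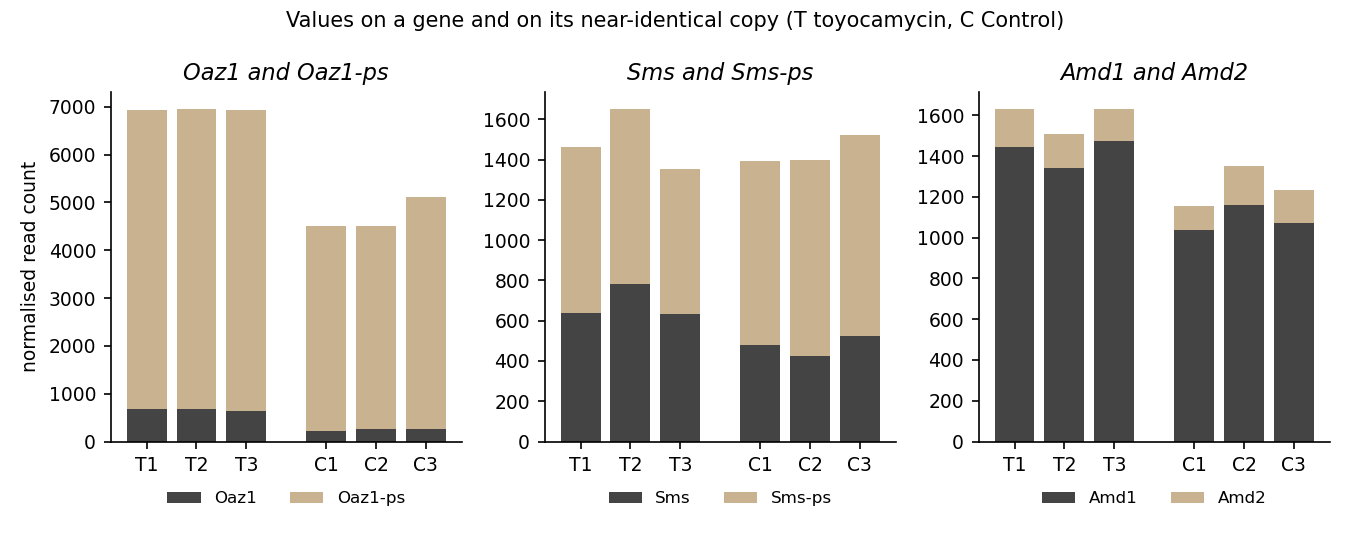
Stacked normalised read counts on 3 genes (dark) and on their near-identical copies (light) in each sample, toyocamycin samples (T) left of Control samples (C). Oaz1-ps holds over 90% of its pair in every toyocamycin sample, the Sms row is taller with toyocamycin while the Sms and Sms-ps stacks overlap between groups (1353 to 1653 with toyocamycin, 1395 to 1525 in Control), and Amd2 adds little to Amd1.

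Amd1, the S-adenosylmethionine decarboxylase that supplies aminopropyl groups (chromosome 10, 40287458 to 40302188), was at 1445, 1344 and 1473 normalised reads with toyocamycin and at 1036, 1160.2 and 1074 in Control. All toyocamycin samples were above all Control samples. The means of 1421 ± 67.7 with toyocamycin and 1090.0 ± 63.8 in Control differ 1.30-fold (log2 change 0.38, SE 0.07, adjusted p = 6.66e-05). The call was lost when totals were equal (0.03, adjusted p = 0.692) and also with the GC and length correction (0.06, adjusted p = 0.525). Amd2 was at 188, 165 and 160.3 with toyocamycin and at 121, 191 and 161 in Control (adjusted p = 0.548). Amd2 held 10.8% of the level summed with Amd1 with toyocamycin and 12.6% in Control, and the sum was 1.28-fold higher without overlap.

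Srm, spermidine synthase (chromosome 4, 148591513 to 148594619), was at 1105, 1161 and 1038 normalised reads with toyocamycin and at 1355, 1388 and 1467 in Control. It was lower in every toyocamycin sample than in any Control sample. The means of 1102 ± 61.6 with toyocamycin and 1404 ± 57.6 in Control make it 1.27-fold lower (log2 change −0.35, SE 0.07, adjusted p = 1.55e-04). Srm was at −0.70 at equal totals, but at 0.06 after GC and length correction, where the call was lost (adjusted p = 0.431).

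Sms, spermine synthase (X chromosome, 157443851 to 157492287), was at 639, 781 and 631 normalised reads with toyocamycin and at 480.2, 427 and 522 in Control. On its own row Sms was 1.44-fold higher, with means of 684 ± 84.1 with toyocamycin and 476 ± 48 in Control and no overlap (log2 change 0.52, SE 0.10, adjusted p = 1.73e-04). Its copy moved the other way. Sms-ps was at 821, 872 and 721 with toyocamycin and at 915, 972 and 1002 in Control (log2 change −0.26, adjusted p = 0.00893). Leaving out toyocamycin replicate 3 gave −0.19 for Sms-ps (adjusted p = 0.0506). The copy held 54.1% of the summed level with toyocamycin and 66.9% in Control. The sum of both rows was 1461, 1653 and 1353 with toyocamycin and 1395, 1399 and 1525 in Control, and these overlap. Fitted as 1 gene, Sms with its copy gave 0.04 on the log2 scale (SE 0.08, adjusted p = 0.627), and −0.30 at equal totals (adjusted p = 4.42e-04). The direction of Sms thus depends on how the reads of the shared coding sequence are counted and on the scaling.

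Sat1, which acetylates spermidine and spermine and so marks them for export or oxidation (X chromosome, 155213126 to 155216449), was at 2007, 2144 and 2212 normalised reads with toyocamycin and at 1162, 1081 and 1310.4 in Control. The lowest toyocamycin sample was well above the highest Control sample. The means of 2121 ± 104 with toyocamycin and 1185 ± 116 in Control differ 1.79-fold (log2 change 0.84, SE 0.07, adjusted p = 1.34e-09). Over the alternatives its log2 change ran from 0.49 to 0.92.

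Smox, spermine oxidase, which turns spermine back into spermidine and releases hydrogen peroxide (chromosome 2, 131491858 to 131525183), was at 27984, 29699 and 27214 normalised reads with toyocamycin and at 6435, 6455 and 6636 in Control. It had the largest increase of the 10 genes. The means of 28299 ± 1272 with toyocamycin and 6509 ± 111 in Control differ 4.35-fold (log2 change 2.12, SE 0.05, adjusted p = 1.51e-18). Over the alternatives the log2 change of Smox ran from 1.65 with quantile normalization to 2.51 after GC and length correction.

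**Figure D3:**
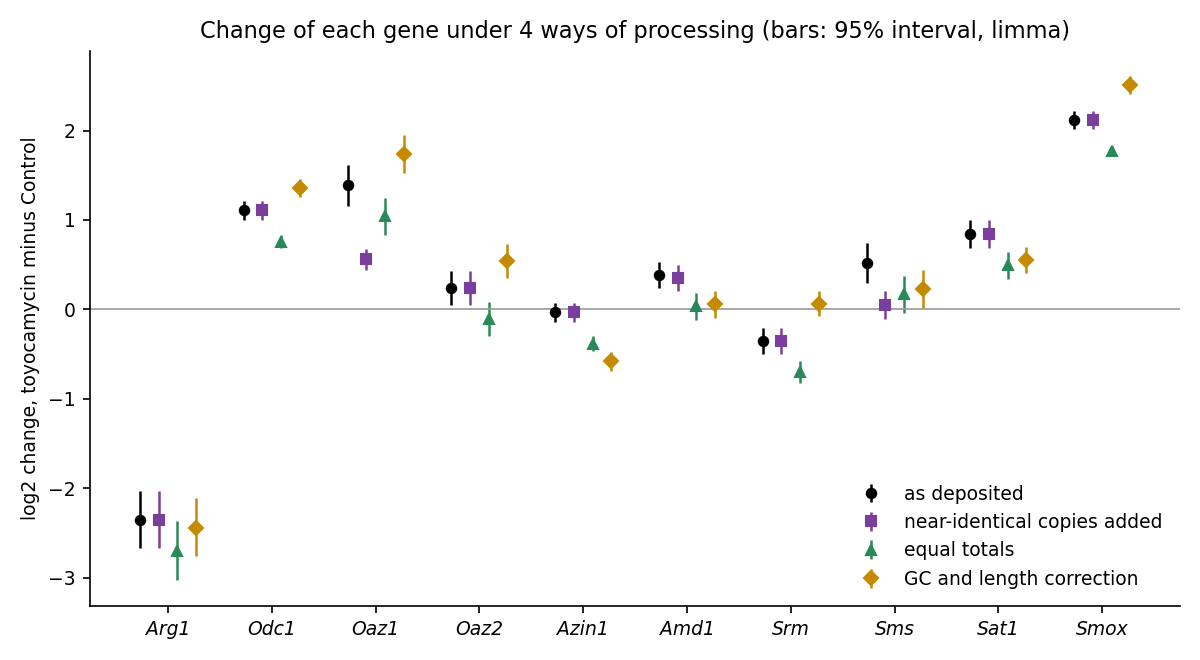
Log2 change (toyocamycin minus Control) of each of the 10 genes with its 95% interval from limma, for the values as deposited, with near-identical copies added, at equal totals and after GC and length correction. Arg1 lies between −2.70 and −2.35 and Smox between 1.77 and 2.51 in all 4, while Oaz1 falls to 0.56 and Sms to 0.04 once their copies are added.

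Set per kilobase of annotated transcript and counting each gene's own row, Smox and Odc1 had the highest levels of the 10 genes in both groups. Smox was at 12310.0 ± 553 normalised reads per kilobase with toyocamycin and 2831 ± 48.2 in Control, and Odc1 was at 5326 ± 194 with toyocamycin and 2473 ± 79.9 in Control. In Control, Srm (1049 ± 43), Sat1 (1020.0 ± 100) and Azin1 (928 ± 7.52) followed, and neighbours in this order differed by no more than the larger of their SDs. Oaz2 (353 ± 30.4), Amd1 (340.2 ± 19.9) and Arg1 (340.2 ± 22.5) could not be told apart in Control either. With toyocamycin the order was Sat1 (1826 ± 89.8), Azin1 (907 ± 24.6), Srm (823 ± 46), Oaz1 (619 ± 24.9), Amd1 (443 ± 21.1) and Oaz2 (417 ± 39.2), with only Amd1 and Oaz2 within an SD of each other. Arg1, at 66.8 ± 12.7 per kilobase, was the lowest of the 10 with toyocamycin. The places of Oaz1 (237 ± 19.7 in Control) and Sms (184 ± 22.6 with toyocamycin and 128 ± 12.9 in Control) count their own rows only. With Oaz1-ps added, Oaz1 was at 6480.0 ± 17.8 per kilobase with toyocamycin, between Smox and Odc1, and at 4401 ± 325 in Control, above both. With Sms-ps added, Sms was at 400.5 ± 41 with toyocamycin and 387 ± 19.8 in Control. Both sums were divided by the length of the longest coding transcript of the parent gene. They count all reads of the copy as reads of the parent, which was not tested.

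Ratios of 2 genes within a sample do not depend on how samples are scaled to each other, and are given as a description without a test. Odc1 relative to Azin1, a pair added after the values were seen, had a log2 ratio of 1.41 ± 0.03 with toyocamycin and 0.27 ± 0.03 in Control. Odc1 relative to Oaz1 was 4.15 ± 0.06 with toyocamycin and 4.43 ± 0.09 in Control when only the Oaz1 row was used. With the copy added to Oaz1, the same ratio was 0.76 ± 0.05 with toyocamycin and 0.21 ± 0.06 in Control, so the direction turned round: the difference was −0.28 with the Oaz1 row alone and 0.55 with both rows. The Azin1 to Oaz1 ratio was lower with toyocamycin either way, by a log2 difference of −1.42 with the Oaz1 row alone and −0.59 with both.

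Relative to spermidine synthase, the Sat1 to Srm log2 ratio was 0.95 ± 0.13 with toyocamycin and −0.25 ± 0.10 in Control. The Smox to Srm ratio, also added after the values were seen, was 4.68 ± 0.03 with toyocamycin and 2.21 ± 0.04 in Control. The Sms to Srm ratio was −0.69 ± 0.11 with toyocamycin and −1.56 ± 0.12 in Control, and with the copy added to Sms it was 0.43 ± 0.07 with toyocamycin and 0.04 ± 0.02 in Control. In each of these 3 pairs the groups did not overlap, and the transcripts of Sat1, Smox and Sms were each higher relative to that of Srm with toyocamycin. These ratios were not corrected for GC content and length. After that correction the log2 change was 0.06 for Srm, 0.56 for Sat1, 0.23 for Sms on its own row and 2.51 for Smox. Whether the Sms to Srm difference with the copy added holds after it was not tested.

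**Figure D4:**
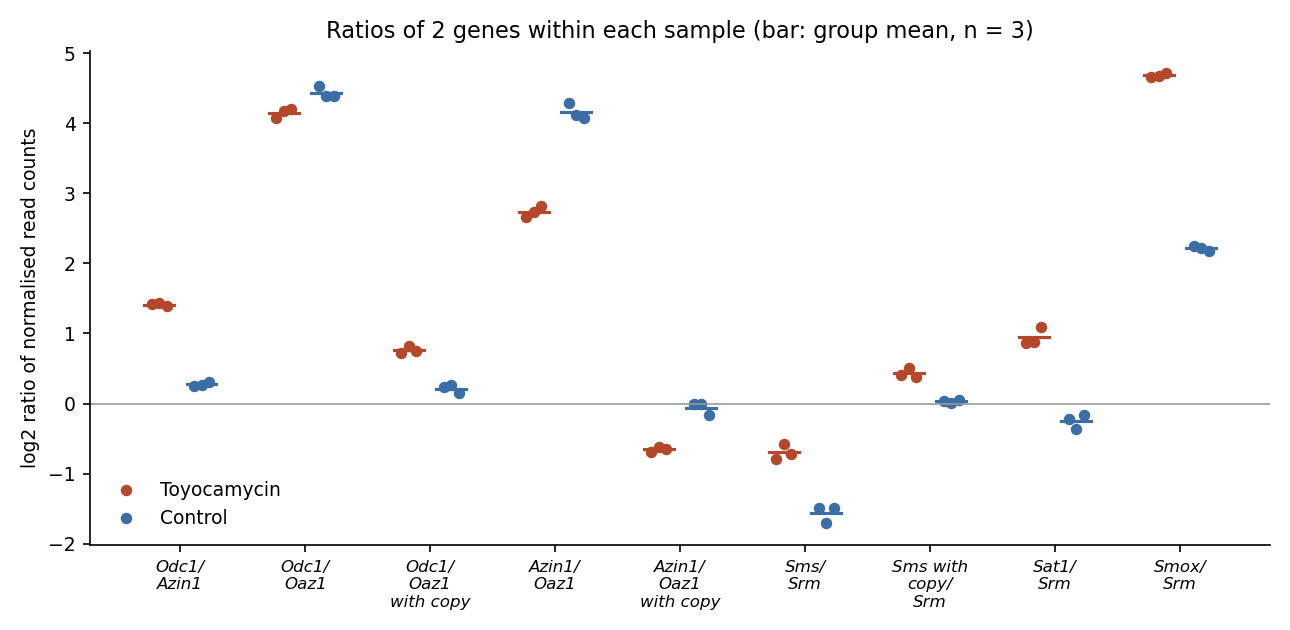
Log2 ratio of normalised read counts of 2 genes within each sample, toyocamycin samples in red left of Control samples in blue, with a bar at each group mean (n = 3). The Odc1 to Oaz1 ratio is lower with toyocamycin on the Oaz1 row alone (4.15 with toyocamycin, 4.43 in Control) and higher once the copy is added (0.76 with toyocamycin, 0.21 in Control), while the Sat1 and Smox ratios to Srm are higher with toyocamycin in every sample.

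Among 64 other genes of the pathway and its surroundings, 58 were tested: 20 were higher, 22 were lower and 16 did not pass, with a median log2 change of 0.05. The share called stands beside 65.9% of all genes tested. At equal totals 15 were higher and 24 lower, against 24.9% and 42.5% of all genes, with a median of −0.25.

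Of the genes listed for arginine and ornithine turnover beside Arg1, Azin2 among them, 5 of 10 tested were lower and 0 were higher. This stands against 33.1% and 32.8% of all genes, with a median log2 change of −1.04 for the 10. Nos2, Nos3, Gamt, Arg2 and Azin2 were near the floor, so the median rests partly on low values. With a mean of at least 10, 4 of 5 tested were lower and 0 higher. Of all 12913 genes in that setting, 5097 were lower and 5080 higher. Argininosuccinate synthase Ass1 and argininosuccinate lyase Asl, which rebuild arginine from citrulline, were both about 4-fold lower. Asl was at 226 ± 17.2 with toyocamycin and 967 ± 39.9 in Control (log2 change −2.09, SE 0.10, adjusted p = 7e-14). Ass1 was at 136 ± 22.5 with toyocamycin and 549 ± 32.1 in Control (log2 change −2.01, adjusted p = 2.88e-11), and its copy Gm5424, 99.52% identical over 1240 bases, was lower by the same amount (log2 change −2.03, 389 ± 21.5 with toyocamycin and 1596 ± 89.9 in Control). Here both rows moved alike, and their sum was at 526 ± 9.31 with toyocamycin and 2145 ± 104 in Control.

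Gatm, which takes arginine towards creatine, was at 12.6 ± 4.95 with toyocamycin and 115 ± 2.94 in Control, 9.14-fold lower (adjusted p = 7.36e-08). Aldh18a1, which starts proline and ornithine synthesis from glutamate, was at 933 ± 145 with toyocamycin and 2758 ± 110.4 in Control, 2.96-fold lower (adjusted p = 7.98e-13). Azin2, the second antizyme inhibitor, was at 5.32 ± 1.95 with toyocamycin and 14.5 ± 0.767 in Control (adjusted p = 0.0386), a call lost in edgeR (adjusted p = 0.0642) and DESeq2 (adjusted p = 0.0983). The Azin2 call was also lost without toyocamycin replicate 2 (adjusted p = 0.082) and without Control replicate 1 (0.0629), 2 (0.0904) or 3 (0.0876), with the replicate block (0.0571), with no filter (0.051) and after GC and length correction (0.178). The mitochondrial arginase Arg2 was near the floor, at 9.97 ± 4.48 with toyocamycin and 8.8 ± 5.71 in Control (adjusted p = 0.724). Ornithine aminotransferase Oat, named after its values were seen, was at 1858 ± 87.8 with toyocamycin and 1817 ± 132 in Control (log2 change 0.03, 95% interval −0.11 to 0.17).

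Of 16 transport genes tested, 4 were higher and 7 lower, with a median log2 change of −0.15, a share called close to the 65.9% of all genes. Atp13a3, a pump that takes up polyamines, was at 22016 ± 454 with toyocamycin and 8132 ± 467 in Control, 2.71-fold higher (log2 change 1.44, SE 0.05, adjusted p = 5.99e-16). The mitochondrial carriers for basic amino acids Slc25a29 (124 ± 4.82 with toyocamycin, 30.2 ± 4.42 in Control) and Slc25a2 (17.7 ± 3.97 with toyocamycin, 3.57 ± 1.84 in Control) were also higher, Slc25a2 with Control values near the floor. The arginine transporter Slc7a7 was lower, at 29 ± 6.42 with toyocamycin and 61.6 ± 7.69 in Control, though not with quantile normalization (adjusted p = 0.0891). Slc12a8 was at 0.565 ± 0.978 with toyocamycin and 5.93 ± 2.1 in Control, close to the floor, and its call was lost without Control replicate 2 (adjusted p = 0.0538) and in DESeq2 (adjusted p = 0.0879). Slc7a1, the main arginine importer of many cells, and Slc3a2, a partner subunit of amino acid transporters, were named after their values were seen. Slc7a1 was at 1747 ± 143 with toyocamycin and 2836 ± 170.4 in Control (log2 change −0.70, adjusted p = 8.3e-09), and Slc3a2 was at 8543 ± 642 with toyocamycin and 4909 ± 263 in Control (log2 change 0.80, adjusted p = 9.63e-11).

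The other catabolic and antizyme genes were low, apart from Aoc2 in both groups and Paox in Control. Of 6 tested, 1 was higher and 3 were lower, again close to the 65.9% of all genes called. Paox, the peroxisomal oxidase of acetylated polyamines, was at 9.96 ± 3.48 with toyocamycin and 55.7 ± 30.3 in Control (log2 change −2.29, adjusted p = 1.46e-04), and it has a copy of 99.93% identity for which no row was used here. Oaz3, an antizyme of the testis, averaged 0.969 ± 0.873 with toyocamycin and 9.73 ± 2.19 in Control, and Sat2 had no read with toyocamycin and 2.94 ± 1.32 in Control. The Sat2 call was lost without toyocamycin replicate 2 (adjusted p = 0.0528), Control replicate 2 (0.0807) or Control replicate 3 (0.123), with the replicate block (0.0664), with a pseudocount of 5 (0.0958), after GC and length correction (0.0516) and in DESeq2 (0.13). Aoc2, a copper amine oxidase, was at 159.9 ± 33.6 with toyocamycin and 88.3 ± 7.15 in Control (log2 change 0.83, adjusted p = 0.00144).

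The genes that supply S-adenosylmethionine, the aminopropyl donor before its decarboxylation, and that recover methylthioadenosine, the by-product of spermidine and spermine synthesis, moved in both directions. The 12 tested also include Ahcy, the related Ahcyl1 and Ahcyl2, and Amd2. Of these 12, 6 were higher and 3 lower, against 32.8% and 33.1% of all genes. At equal totals 3 were higher and 3 lower, against 24.9% and 42.5%. Adi1, an enzyme of the salvage pathway, was at 2292 ± 143 with toyocamycin and 581 ± 29.4 in Control, 3.95-fold higher (log2 change 1.98, adjusted p = 9.7e-16). Mat2b, the regulatory subunit of methionine adenosyltransferase, was 3.31-fold higher (6156 ± 221 with toyocamycin, 1857 ± 160.5 in Control). The catalytic subunit Mat2a, named after its values were seen, was lower, at 4321 ± 212 with toyocamycin and 5000 ± 32.2 in Control (log2 change −0.21, adjusted p = 0.00133). Mtap, which splits methylthioadenosine, was 1.68-fold higher (1891 ± 92.9 with toyocamycin, 1128 ± 32.1 in Control). Larger decreases were those of Ahcy and Mri1. Ahcy, which removes S-adenosylhomocysteine, was at 703 ± 4.85 with toyocamycin and 1993 ± 85.7 in Control (log2 change −1.50). Mri1 of the salvage pathway was at 356 ± 52 with toyocamycin and 721 ± 51.7 in Control (log2 change −1.02). Ahcy has 2 copies of 99.71% and 99.15% identity for which no row was used here.

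Spermidine is the source of hypusine, a modified lysine of the translation factor eIF5A. Of the 4 genes of this use, 3 were higher and 1 lower, against 32.8% and 33.1% of all genes. Eif5a was at 26534 ± 339 with toyocamycin and 17227 ± 821 in Control, 1.54-fold higher (log2 change 0.62, SE 0.05, adjusted p = 3.79e-10), and 0.14 with quantile normalization. Eif5a2 (log2 change 0.81) and the hydroxylase Dohh (0.76) were also higher, with Eif5a2 at 0.23 after GC and length correction. A transcript of Gm48551, for which no row was used here, is identical to Dohh over 762 bases. Dhps, which makes the first step from spermidine, was at 597 ± 34.3 with toyocamycin and 855 ± 20.2 in Control (log2 change −0.52, adjusted p = 9.82e-06), or −0.16 after GC and length correction, where it did not pass (adjusted p = 0.0935).

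Odc1 is a classical target of MYC, whose network was listed for that reason. Of 10 genes, 6 were higher and 3 lower as deposited, where 65.9% of all genes were called, and 4 were higher and 4 lower at equal totals, where 67.4% were. Myc itself was at 5748 ± 482 with toyocamycin and 4788 ± 86.8 in Control (log2 change 0.26, adjusted p = 5.11e-04), but at −0.09 at equal totals and −0.24 with quantile normalization, so its direction is not stated. The larger changes were in MAX partners. Mxi1 was 7.75-fold higher (2463 ± 219 with toyocamycin, 318 ± 15.5 in Control), Mnt 2.72-fold and Mga 2.24-fold higher, and Mxd3 was 11.8-fold lower (49.4 ± 12.3 with toyocamycin, 582 ± 54.5 in Control). Mycn was at 54.7 ± 7.92 with toyocamycin and 128 ± 28.4 in Control (log2 change −1.20, adjusted p = 2e-04). The E-box that MYC and MAX bind (CACGTG, the same on both strands) was searched within 250 bases upstream of the start. Of the 10 genes, 7 had a RefSeq GRCm38.p6 promoter, and 1 of these, Sms, held the E-box. It lay in the Sms promoter at 157492288 to 157492537 of the X chromosome, not in that at 157491369 to 157491618. Counted per promoter, 6.02% of 32851 promoters of that set held it. Bases inside the genes were not searched, so a gene without it here may hold an E-box elsewhere.

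**Figure D5:**
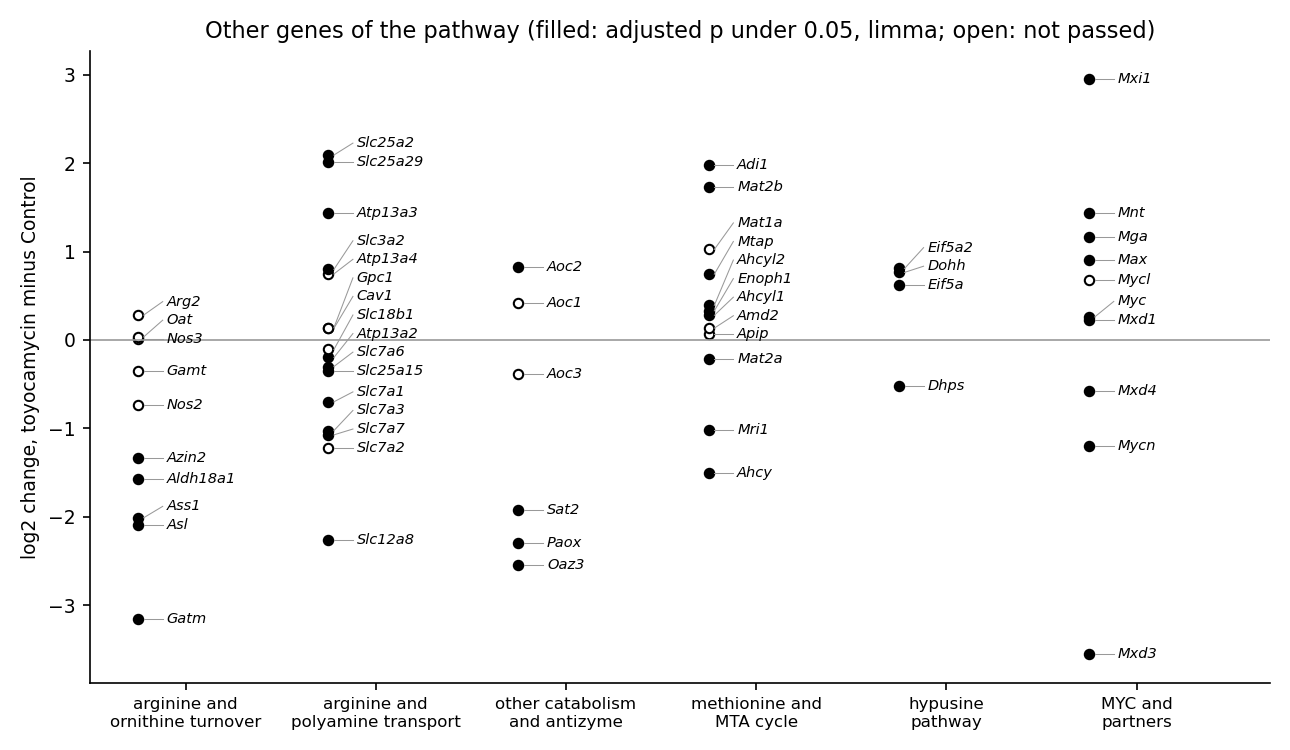
Log2 change (toyocamycin minus Control) of the 58 tested genes around arginine and polyamine metabolism, in 6 lists along the horizontal axis, with filled points for an adjusted p under 0.05 in limma. All filled points of arginine and ornithine turnover lie below 0, down to Gatm at −3.16, while the transport genes spread from Slc12a8 at −2.26 to Slc25a2 at 2.09, both near the floor in 1 group.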

How the data were processed

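RNA was extracted with TRIzol and sequenced after a standard Illumina library preparation, per the labels' protocols. Per the submitters' processing notes, the authors used cutadapt 4.7 and FastQC, with mm10 as mouse build. Which aligner, counter, strand setting and annotation were used is not given in the sources here. Although the name of the deposited table says FPKM, it holds a normalised signal: 100% of its deposited values are whole reads, to within 0.01 reads, over 1 size factor per sample. The design assumed a normalised unit, so limma was kept as the main test.

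Genes with a mean of at least 1 (16223) were compared as log2(value + 1) with limma 3.58.1 (R 4.3.3) with a mean-variance trend, in a two-sided test whose p-values were adjusted by Benjamini-Hochberg over every gene tested, at a threshold of 0.05. The pseudocount makes log2 changes understate those of low genes. Folds are ratios of group means. Within-group pairs of samples all differed beyond counting error (3.96 to 7.76 chi-square units per degree of freedom). Floors cover counting error only. Alternatives were pseudocounts of 0.5 and 5, no filter and a mean of at least 10, equal totals, TMM, quantile normalization, a replicate block, edgeR 4.0.16 and DESeq2 1.42.0 on the recovered reads, correction for GC content and length (known for 97.7% of genes tested), and leaving out each sample. Copies were found with BLAST 2.17.0 in GENCODE M21 transcripts, and adding copies of at least 99% identity over 500 bases to their parent gene was an alternative chosen after seeing the data. The script was tested on simulated data. The 10 genes and the lists were chosen with earlier results of these data known. Named are the 10 genes, up to 5 called genes with the largest change per list, Arg2, Eif5a, Myc and near-identical copies; others are said to have been chosen after their values were seen. Coordinates are those of GRCm38.p6. Promoters of Arg1, Srm and Azin1 were not used.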

Additional observations from a re-analysis of the deposited data

How the results depend on the processing

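The calls of Arg1, Odc1, Oaz1, Sat1 and Smox kept their direction and stayed past the threshold in every alternative run. At equal totals the log2 change of Oaz2 was −0.11, of Azin1 −0.38 (now called), of Amd1 0.033 and of Sms 0.17. There, 4 genes of the 10 were called higher and 3 lower, against 24.9% and 42.5% of all genes. TMM gave 0.19 and edgeR 0.19 for Oaz2, neither called. Quantile normalization gave −0.52 for Azin1, now called. GC and length correction gave −0.58 for Azin1, now called, and 0.055 for Amd1, 0.063 for Srm and 0.23 for Sms, none called. Leaving out 1 sample each time gave 0.177 to 0.313 for Oaz2, whose call was lost without toyocamycin replicate 2 or 3 or Control replicate 1 or 2. With copies summed, chosen after seeing the data, Sms was at 0.045 and not called, and the within-sample log2 ratio differences were 0.55 for Odc1/Oaz1 (−0.28 on the Oaz1 row), −0.59 for Azin1/Oaz1, −0.32 for Oaz2/Oaz1 and 0.40 for Sms/Srm. With copies summed and equal totals together, Oaz2 was at −0.11, Azin1 at −0.38 (called), Amd1 at 0.0035, and Sms at −0.30 (called lower), with 4 of the 10 called higher and 4 lower. Over all 16219 genes in that setting, 4039 were called higher and 6894 lower. The cause of these shifts was not tested.

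Same-numbered samples did not deviate together (correlations −0.01, 0.02 and −0.04 over genes). This cannot show whether they shared an animal or culture, which the labels leave unsaid. With a replicate block, 7 of the 10 were higher and 2 lower, as without it, and over all genes 5272 were higher and 5298 lower. Depth is no limit for the 10 genes, all far above the floor, but it is for Arg2, Azin2, Gamt, Nos2, Nos3, Oaz3, Sat2, Slc12a8 and Slc25a2.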
